A study of Danio rerio with 370 samples.

Results

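The genes described here are the tubulin isotypes that were read in newborn neurons (NBNs) of the adult zebrafish forebrain. They were taken by name: *tubb5* (ENSDARG00000037997) and every identifier in the count table with the symbol *tuba1a*, *tuba1b*, *tuba1c*, *tuba2*, *tubb2b* or *tubb4b*, with case ignored. This gave 8 genes of the 32266 in the table. The α-tubulins were *TUBA1A* (ENSDARG00000001889), *tuba1b* (ENSDARG00000045367), *tuba1c* (ENSDARG00000055216) and *tuba2* (ENSDARG00000045014). The β-tubulins were *tubb5*, *tubb4b* (ENSDARG00000002344) and 2 copies under the same symbol, which are kept apart by the case of the symbol table as *tubb2b* (ENSDARG00000098591) and *TUBB2B* (ENSDARG00000039522).

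Microtubules are polymers of dimers of an α-tubulin and a β-tubulin, and vertebrate genomes hold several genes, the isotypes, for each chain. Isotypes are very similar proteins that differ mainly in their C-terminal tails, where motors and other microtubule-binding proteins dock and where the chains are modified. Growing axons and dendrites need much tubulin, and neurons partly use other isotypes than dividing progenitors do. In mammals, TUBA1A and the TUBB2 and TUBB5 genes are strongly expressed in young neurons, and TUBB4B is expressed in many cell types.

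Single cells were sorted from adult *her4.1:mcherry*;*elavl3:gfp* fish, in which mCherry is made in radial glia and is inherited as protein by their daughters, while GFP marks neurons. Mature neurons (MNs, mCherry negative and GFP positive), NBNs (mCherry low and GFP positive) and radial glia (RG, mCherry high and GFP negative) were taken from the telencephalon together with the anterior diencephalon, and carried both transgenes in every gate. Each cell was sequenced as its own SMART-seq2 library, a full-length cDNA protocol without molecular identifiers, so that values count reads and not molecules. The NBN and RG gates came from 6 fish, and all MN cells from fish 6, which alone forms batch bfx811, so that this batch and this fish cannot be told apart. Taking the cells of bfx811 as 1 fish is an assumption, since their names carry no fish number.

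Of 370 cells, 264 passed the quality filters: 27 of 30 MN, 164 of 169 NBN and 73 of 171 RG cells. Their median depth was 191372 reads for MN, 270898 for NBN and 211548 for RG cells, and sums per fish and gate held 1539845 to 11933343 reads. The gates carried the markers of their labels. The summed level of 5 neuronal markers was 9702 CPM (reads of a gene per 1000000 reads counted on all genes) in the MN gate, 8936 to 12216 CPM among NBNs and 448 to 1372 CPM among RG, and that of 8 radial glia markers was 999 CPM, 565 to 3787 CPM and 21784 to 54533 CPM in the MN, NBN and RG gates. Markers of other cell types were also read. The 6 identifiers of oligodendrocyte precursor markers were all at 0 in MNs and summed to 0.969 to 1817 CPM in NBNs and 579 to 1487 CPM in RG. Most of the RG sum was *CD82* (ENSDARG00000019098), with a mean of 925 CPM and reads in 53 of 73 RG cells. *olig2* and *sox10* were read in 2 RG cells each, *aplnra* in 1 and *olig1* in 0, against 16, 9, 11 and 12 of 164 NBN cells. The 2 identifiers of ependyma markers summed to 1.16 CPM in MNs, 0 to 18.5 CPM in NBNs and 8.68 to 313 CPM in RG. *FOXJ1* was read in 10 and *foxj1b* in 9 of 73 RG cells, against 1 and 3 of 164 NBN cells. The 5 identifiers of microglia markers summed to 3.49 CPM, 0.25 to 139 CPM and 0 to 3371 CPM in the MN, NBN and RG gates, while red blood cell markers were at 0 throughout. Their part in the differences between gates was not tested.

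Tubulin reads made up a larger part of all reads in the NBN gate, taken as a whole, than in the RG gate. The 8 genes held 1.39 ± 0.599% of all reads in NBNs (SD, n = 6 fish; 0.476 to 2.22%) and 0.259 ± 0.118% in RG (0.140 to 0.431%), and the ranges did not overlap. In the fish of batch bfx811 they held 0.395% of the reads of MNs and 0.476% of those of NBNs. Levels of a gene are compared below between groups of cells only, because transcript lengths were not used and a longer transcript yields more reads. Reads that fit more than 1 place were not counted, so that reads from stretches that isotypes share were lost, and this can shift the level of each of these genes.

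*tubb5* was higher in NBNs than in RG in every fish. Its levels in fish 1 to 6 were 5958, 3243, 8119, 3805, 4412 and 1510 CPM in the NBN gate, against 372, 3.79, 0.543, 307, 1.68 and 107 CPM in the RG gate. Every NBN value lay above every RG value. In edgeR's quasi-likelihood test over all 8393 genes tested, the log2 fold change of NBN over RG was 5.35 ± 1.2 (SE), with an adjusted p of 0.00597. Without fish 6 it was 5.35 (adjusted p = 0.0303), and the lowest of the leave-out fits, without fish 3, gave 4.58 (adjusted p = 0.0174).

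Among the α-tubulins, *tuba2* was close to absent from RG. It had 1178, 1102, 1469, 1143, 877 and 412 CPM in the NBN gate of fish 1 to 6, against 0, 2.28, 0, 0.548, 0.280 and 33.3 CPM in the RG gate. Its log2 fold change was 7.28 ± 1.40 (edgeR, adjusted p = 0.00234). Of the 118 *tuba2* reads in RG of fish 6, 116 lay in RG gate cells that also had a read of the neuronal gene *elavl3*. Without the 8 RG gate cells with an *elavl3* read, a choice made after the data were seen, the log2 fold change was 11.1 (edgeR, adjusted p = 3.59e-07). Without fish 6 the log2 fold change was 10.8 (edgeR, adjusted p = 3.97e-05). In both fits RG held at most 6 *tuba2* reads per fish, so that the size of these 2 values rests on very few reads.

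*tuba1c* and *TUBA1A* were present in both gates and rose in NBNs. *tuba1c* had a lowest, median and highest level of 850, 2300 and 3026 CPM in the NBN gate, against 117, 175 and 477 CPM in the RG gate, without overlap, and a log2 fold change of 3.56 ± 0.49 (edgeR, adjusted p = 0.000109). *TUBA1A* had 498, 1942 and 2761 CPM in the NBN gate, against 92.7, 230 and 512 CPM in the RG gate. Here only the NBN value of fish 6 fell into the range of RG, and the log2 fold change was 2.99 ± 0.53 (edgeR, adjusted p = 0.00122).

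The copy *TUBB2B* was a rare transcript with a large fold change. It had 20.8, 61.7 and 105 CPM as lowest, median and highest value in the NBN gate, against 0, 0.141 and 0.840 CPM in the RG gate, where 5 reads were counted in all. Its log2 fold change was 7.89 ± 1.63 (edgeR, adjusted p = 0.00378). These reads came from few cells: 37 of 164 NBN gate cells had a *TUBB2B* read, and 5 of them held 51.7% of its 2900 reads.

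The other copy, *tubb2b*, had a lowest, median and highest level of 454, 1234 and 1745 CPM in NBNs and 24.7, 378 and 844 CPM in RG. Its groups overlapped, and it did not pass (log2 fold change 1.70 ± 0.63, edgeR, adjusted p = 0.128). Without the *elavl3*-positive RG gate cells the value was 1.99 and passed (adjusted p = 0.0475). A gene that did not pass is not shown to be unchanged. The other genes that did not pass were *tuba1b*, at 182 ± 80.8 CPM in NBNs and 85.7 ± 44.6 CPM in RG (log2 fold change 1.28 ± 0.66, adjusted p = 0.341), and *tubb4b*, at 2966 ± 1351 CPM in NBNs and 1491 ± 671 CPM in RG (log2 fold change 1.16 ± 0.44, adjusted p = 0.135; SD over 6 fish, SE for fold changes, edgeR).

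All 8 genes passed the filter on low counts, and 5 of 8 were called, all higher in NBNs, while 8.47% of all genes tested were called, 6.66% higher and 1.81% lower in NBNs. The 8 genes are not an independent list. The paper names *tubb5* and *tuba2* among the markers of NBN.1, a cluster of newborn neurons that it found in these same data. The list was also chosen with earlier results known, so that 5 of 8 is a description. Gates did not overlap over fish for 4 of the 8, with NBN higher, which held for 10.1% of all genes tested, while 2.51% did not overlap with NBN lower. The median log2 fold change of the 8 genes was 3.27, against 0.69 over all genes tested. That overall shift moved with the scaling, to 0.48 without TMM and 0.20 with upper quartile normalization. With the fish as a block it rose to 2.06. Set against the 0.69 of the main fit, *tubb4b* lay 0.47 above the median gene on the log2 scale and *tuba1b* 0.59. *tubb2b* lay 1.01 above it, *TUBA1A* 2.29, *tuba1c* 2.87 and *tubb5* 4.66. For *tubb4b* and *tuba1b* this did not hold with the fish as a block. Their highest log2 fold changes in any alternative fit, 1.42 and 1.61, were under the 2.06 of that fit. The same 5 genes were called in each of the 16 alternative fits.

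**Figure D1:**
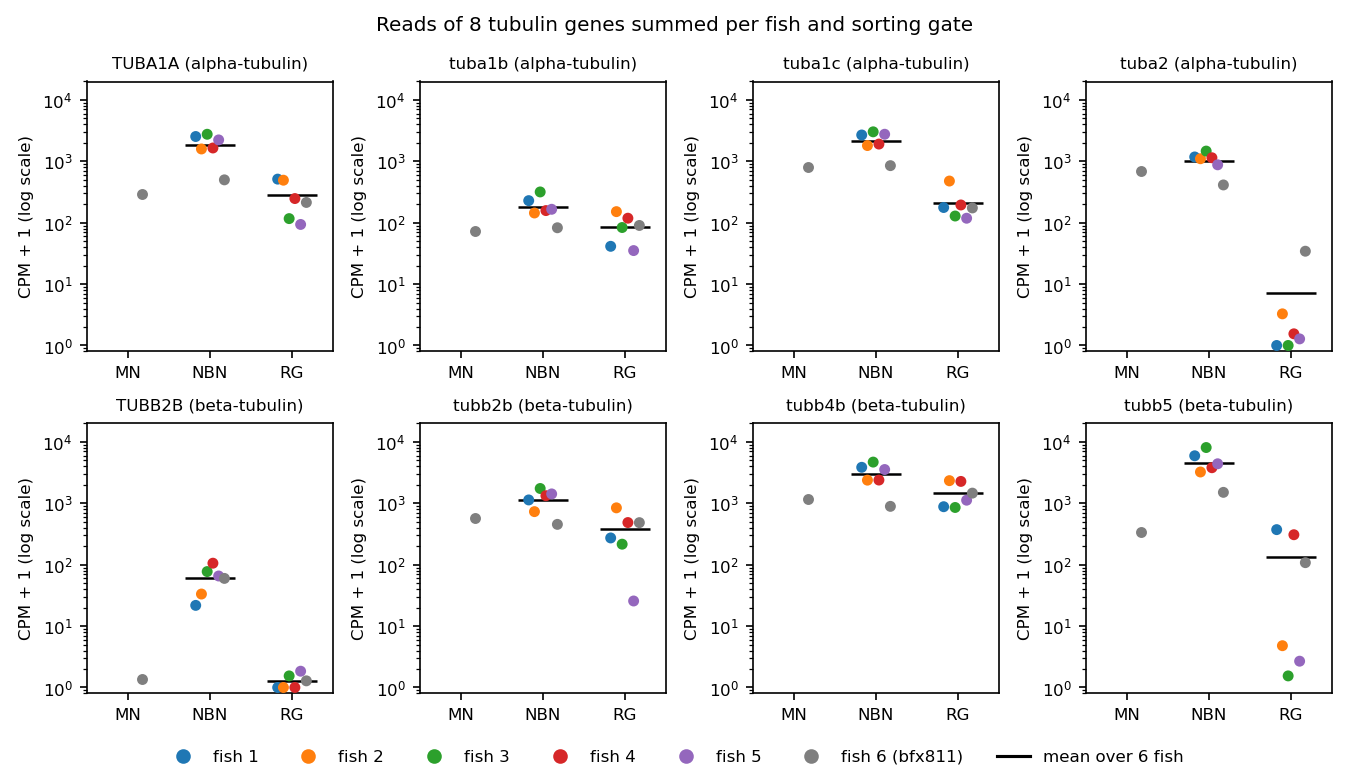
Levels of the 8 tubulin genes, in CPM of the reads summed per fish and gate, plus 1, on a log scale. Each point is a fish, coloured by fish, with the MN gate (fish 6 alone) left, the NBN gate in the middle and the RG gate right, and the line is the mean over 6 fish. *tubb5*, *tuba2*, *tuba1c* and *TUBB2B* do not overlap between NBN and RG.

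The composition of the tubulin reads was then compared cell by cell. For each cell with at least 10 reads on the 8 genes (27 MN, 161 NBN and 67 RG cells), the reads of a gene were divided by those of all 8, and the shares were averaged per fish and gate. The difference between NBNs and RG of the same fish was tested for each of the 8 genes by flipping the signs of the fish in every possible way (an exact permutation test, two-sided), which with 6 fish cannot give a p below 0.03125. Shares add up to 100% in each cell, so that a gain of some genes forces a loss in others, and the 8 tests are not independent.

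In RG of each fish, *tubb4b* held on average more than 50% of a cell's reads on the tubulin genes compared here. Its mean share in fish 1 to 6 was 24.0, 28.0, 20.9, 18.9, 23.7 and 28.0% in NBNs, against 53.6, 59.3, 50.3, 70.0, 71.7 and 65.0% in RG. The share was lower in NBNs in 6 of 6 fish, by 37.7 ± 9.63 percentage points (exact permutation test, p = 0.03125). Cells in which *tubb4b* alone held more than 50% of the reads numbered 3 of 27 MNs, 18 of 161 NBNs and 50 of 67 RG. With *tubb5* left out of the sum, a choice made after the data were seen, its share was 29.4 ± 3.67% in NBNs and 62.5 ± 9.48% in RG, again lower in 6 of 6 fish (exact permutation test, p = 0.03125). The level of *tubb4b* in CPM was not called as changed.

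The share of *tubb5* in fish 1 to 6 was 24.7, 11.8, 29.8, 13.3, 18.3 and 7.65% in NBNs, against 11.04, 0.170, 0.0301, 4.43, 3.41 and 2.22% in RG. The gain was 14.04 ± 8.43 percentage points, seen in 6 of 6 fish (exact permutation test, p = 0.03125), and 15.8 points within batch bfx855, where 5 fish allow no p under 0.0625. Each cell counts alike in these means, also where it has few tubulin reads. The 3.41% of *tubb5* in RG of fish 5 came from 1 of 11 cells, with 6 of 16 tubulin reads, and was 0% without it. With reads pooled per fish and gate, the gain of *tubb5* was 26.8 points (exact permutation test, p = 0.03125). *tuba1c* gained 13.7 ± 7.13 points (20.7 ± 4.23% in NBNs, 6.97 ± 3.43% in RG; 6 of 6 fish, exact p = 0.03125), and 7.96 points with pooled reads (exact p = 0.03125). *tuba2* gained 10.7 ± 2.68 points (10.9 ± 2.61% in NBNs, 0.175 ± 0.232% in RG; 6 of 6 fish, exact p = 0.03125).

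The remaining 4 genes did not pass. *TUBA1A*, although called higher in CPM, had a share of 13.1 ± 1.13% in NBNs and 12.4 ± 6.72% in RG (exact permutation test, p = 0.84375), and its NBN values spanned 11.1 to 14% over 6 fish. The sign of this difference was not stable, at -3.50 points with all 370 cells and -1.21 points without fish 4. Among α-tubulin reads alone, *TUBA1A* had 30.5 ± 4.54% in NBNs and 42.5 ± 11.5% in RG, lower in 5 of 6 fish (exact permutation test, p = 0.09375). *tubb2b* had 11.3 ± 2.62% in NBNs and 10.3 ± 5.2% in RG (exact p = 0.78125), and its difference turned from 1.03 to -5.12 points with pooled reads (exact p = 0.125). *TUBB2B* had 1.1 ± 0.779% in NBNs and 0.199 ± 0.464% in RG (exact p = 0.09375). *tuba1b* had 1.40 ± 0.501% in NBNs and 4.74 ± 3.14% in RG, lower in NBNs in 5 of 6 fish (exact p = 0.0625). When *tuba1b* was divided by α-tubulin reads alone, its share was 3.30 ± 0.905% in NBNs and 28.0 ± 13.7% in RG, lower in 6 of 6 fish (exact p = 0.03125).

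Together the 4 α-tubulin genes held on average 50.3% of a cell's reads on the 8 genes in MNs of fish 6. The values were 46.1 ± 4.77% in NBNs (39.5 to 51.3%) and 24.3 ± 8.41% in RG (17.0 to 39.2%). Every NBN value lay above every RG value, narrowly so for fish 3 of each gate. This holds for the 8 genes only. The α-tubulin genes *tuba5* and *tuba8l4*, left out here, had 145 and 246 CPM in RG against 10.96 and 142 CPM in NBNs. The β-tubulin gene *tubb4bl*, also left out, was higher in NBNs. The share of all α-tubulin genes was not compared between gates. This share is in reads and says nothing of the ratio of the proteins.

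**Figure D2:**
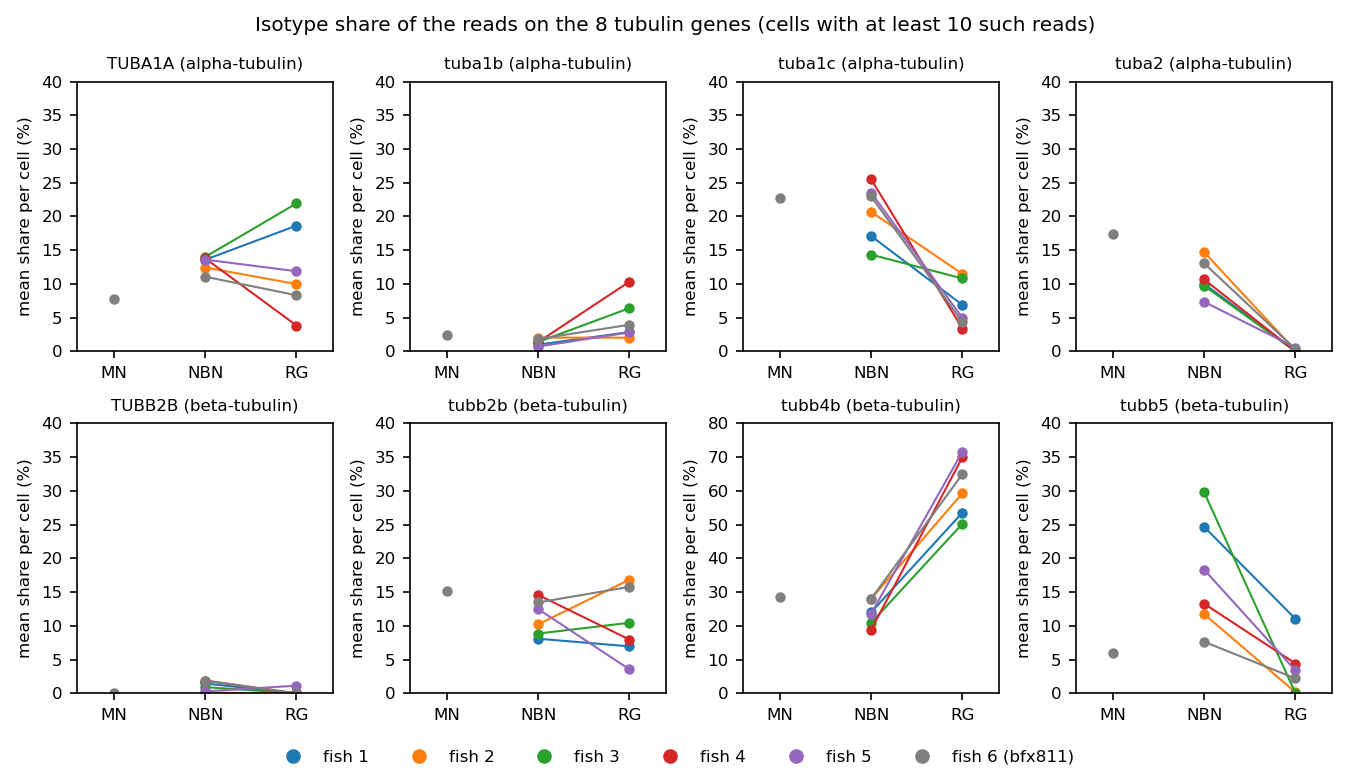
Mean share per cell (%) of each gene in the reads on the 8 tubulin genes, with lines joining the NBN and RG values of the same fish, and the MN value of fish 6 at left. The scale of *tubb4b* runs to 80% and the others to 40%. Lines fall towards RG in all 6 fish for *tubb5*, *tuba2* and *tuba1c*, and climb in all 6 for *tubb4b*.

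The number of cells with at least 1 read was compared as a further measure. *tuba2* was read in 22 of 27 MN, 121 of 164 NBN (73.8%) and 9 of 73 RG cells (12.3%), and *tubb5* in 11 of 27 MN, 97 of 164 NBN (59.1%) and 16 of 73 RG cells (21.9%). NBNs exceeded RG in 6 of 6 fish for both (exact permutation test, p = 0.03125). After thinning every cell to 20000 reads, *tuba2* was read in 114 of 164 NBN and 2 of 73 RG cells, and *tubb5* in 89 of 164 NBN and 11 of 73 RG cells (6 of 6 fish, exact p = 0.03125 for both). *tubb4b* was read in 141 of 164 NBN (86.0%) and 61 of 73 RG cells (83.6%), a difference that did not pass (exact permutation test, p = 0.46875). *TUBA1A*, whose share did not pass, was read in 155 of 164 NBN and 48 of 73 RG cells, and *TUBB2B* in 37 of 164 NBN and 4 of 73 RG cells, both with more NBNs in 6 of 6 fish (exact permutation test, p = 0.03125). *tuba1c*, which gained share, was read in 157 of 164 NBN and 57 of 73 RG cells (4 of 6 fish, exact permutation test, p = 0.125), and after thinning in 155 of 164 and 35 of 73 (6 of 6 fish, exact p = 0.03125). *tuba1b*, in 132 of 164 NBN and 48 of 73 RG cells, and *tubb2b*, in 123 of 164 and 33 of 73, did not pass (exact permutation test, p = 0.125 and 0.0625). Detection and share thus did not order the genes alike.

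The few *tubb5* reads of the RG gate were unevenly spread over cells. Of 2650 reads, 2 cells held 51.4%, 1 from fish 4 and 1 from fish 1. In all, 8 RG gate cells had at least 250 CPM of *tubb5*. Each of these 8 had a read of the radial glia gene *her4.1*, 6 had no read of *elavl3*, and 4 had a read of *ccnd1*, a cyclin of the G1 phase. Of all 73 RG cells, 68 had a read of *her4.1*, 8 a read of *elavl3* and 31 a read of *ccnd1*. The 8 cells are too few to set apart from the rest of the gate by these reads. The limit of 250 CPM was set after the values were seen.

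Within the NBN gate, *tubb5* levels formed a high and a low group of cells. It had no read in 67 cells, under 100 CPM in 12, 100 to under 1000 CPM in 9, 1000 to under 10000 CPM in 47 and at least 10000 CPM in 29. Cells were therefore split at 1000 CPM into 88 *tubb5*-low and 76 *tubb5*-high cells, of which 5 and 4 lay within 2-fold of that limit. Fish held 7 to 23 low and 4 to 21 high cells each. In fish 3, which had the highest level of *tubb5*, 21 of 28 cells were high, and in fish 6, which had the lowest, 4 of 27, so that the sums per fish move with this mixture. Because the split uses values of these same cells, what follows is a description without a test.

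Most isotypes were lower where *tubb5* was low. In *tubb5*-low cells the 8 genes held 0.353 ± 0.0878% of all reads, against 2.45 ± 0.235% in *tubb5*-high cells (SD, n = 6 fish). Without *tubb5* itself the values were 0.343 ± 0.0818% and 1.52 ± 0.255%. Of the 7 other genes, 6 were lower in *tubb5*-low cells in 6 of 6 fish, while this held for 2.93% of 10320 genes with at least 10 CPM, and 5.41% were higher in 6 of 6 fish.

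The distance between the classes differed from gene to gene. *TUBA1A* had 232, 464 and 776 CPM (lowest, median and highest fish) in *tubb5*-low cells, against 2225, 3404 and 3718 CPM in *tubb5*-high cells. *tuba1b* had 38.3 ± 20.1 CPM in low and 318 ± 49.8 CPM in high cells, which gave the lowest ratio of the 7, 0.120. *tuba1c* had 749 ± 211 CPM in low and 3631 ± 329 CPM in high cells, *tubb4b* 958 ± 229 and 4699 ± 1100 CPM, and *tubb2b* 470 ± 152 and 1796 ± 472 CPM. None of these 5 genes overlapped between the classes. How many of all genes do so was not counted, so this is not shown to be unusual.

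*tuba2* differed least among those 6. It had 763, 627, 1181, 658, 390 and 369 CPM in *tubb5*-low cells of fish 1 to 6, against 1367, 1868, 1557, 1919, 1202 and 688 CPM in *tubb5*-high cells. The classes overlapped over fish, but in each fish the low cells had less, and the ratio of means was 0.464. *TUBB2B* followed no common direction, with 58.4, 0.215, 251, 59.8, 1.62 and 67.9 CPM in low cells, against 3.61, 83.9, 22.4, 177, 106 and 0 CPM in high cells. It was lower in *tubb5*-low cells in 3 fish and higher in 3.

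Where *tubb5* was low, *tuba2* took on average a larger and *TUBA1A* a smaller part of the remaining tubulin reads. For *tuba2* the low cells were uneven, so that its mean does not describe each of them. Without thinning, 52 of 88 low and 69 of 76 high cells had a *tuba2* read. In a low cell of fish 6, *tuba2* held 99.5% of the reads on the 8 genes. Over the reads of the 7 genes without *tubb5*, in cells with at least 10 reads on the 8 genes, *tuba2* had 19.2, 18.1, 21.7, 13.3, 9.88 and 15.03% in *tubb5*-low cells of fish 1 to 6, against 9.35, 10.97, 9.48, 9.37, 7.91 and 4.08% in *tubb5*-high cells, a mean gain of 7.67 ± 4.06 percentage points and a gain in each of 6 fish. *TUBA1A* had 13.5 ± 3.12% in low and 21.3 ± 1.16% in high cells and was lower in 6 of 6 fish, by 0.811 points in fish 3 and by 6.72 to 11.7 points in the others. The other 5 genes differed in sign between fish. *tuba1c* had 25.6 ± 6.23% in low and 24.3 ± 3.08% in high cells (3 fish each way), *tubb4b* 27.4 ± 4.76% and 30.2 ± 3.48% (lower in 5 of 6), and *tubb2b* 14.1 ± 3.76% and 12.03 ± 1.66% (higher in 4 of 6).

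Over the 5 ranges of *tubb5*, from no read upwards, the mean share of *tuba2* was 15.95, 16.3, 13.5, 9.18 and 8.69%, and that of *TUBA1A* 11.98, 12.9, 19.3, 20.7 and 22.2%. The third of these ranges held only 9 cells. The median share of all reads on the 8 genes was 0.196, 0.247, 0.494, 1.87 and 3.47% over the same ranges.

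**Figure D3:**
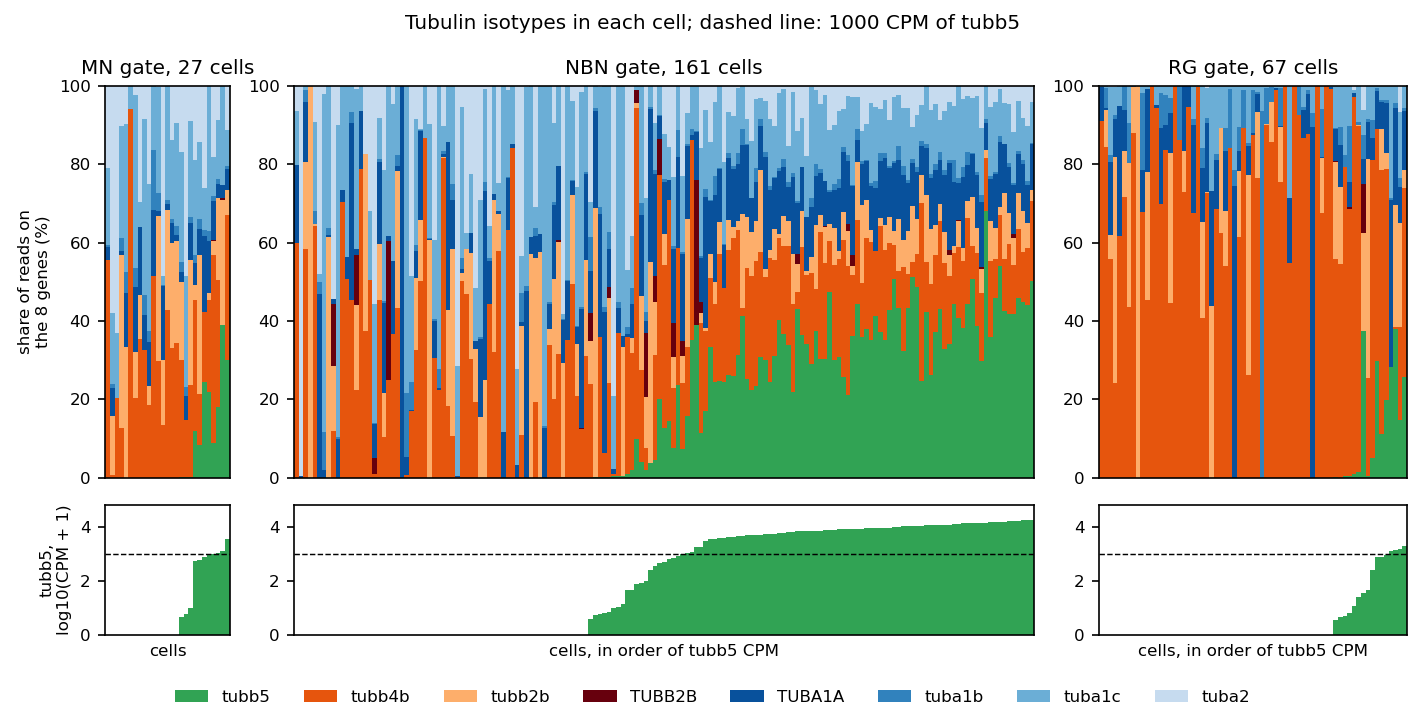
Above, each bar is a cell with at least 10 reads on the 8 tubulin genes, split by the share (%) of each gene, with cells ordered by *tubb5* within the MN, NBN and RG gates. Below is the *tubb5* level of the same cell as log10 of CPM plus 1, with 1000 CPM dashed. *tubb5* takes up to 39% of a bar in MNs, 68.1% in NBNs and 37.9% in RG, and *tubb4b* more than 50% in 50 of the 67 RG bars.

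Detection moved in the same direction as the levels. After thinning to 20000 reads, *tuba2* was read in 45 of 88 *tubb5*-low and 69 of 76 *tubb5*-high cells, *tuba1b* in 27 of 88 and 65 of 76, and *tubb2b* in 45 of 88 and 72 of 76, with fewer low cells in 6 of 6 fish for each. *tuba1c* remained widely read, in 79 of 88 low and 76 of 76 high cells.

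**Figure D4:**
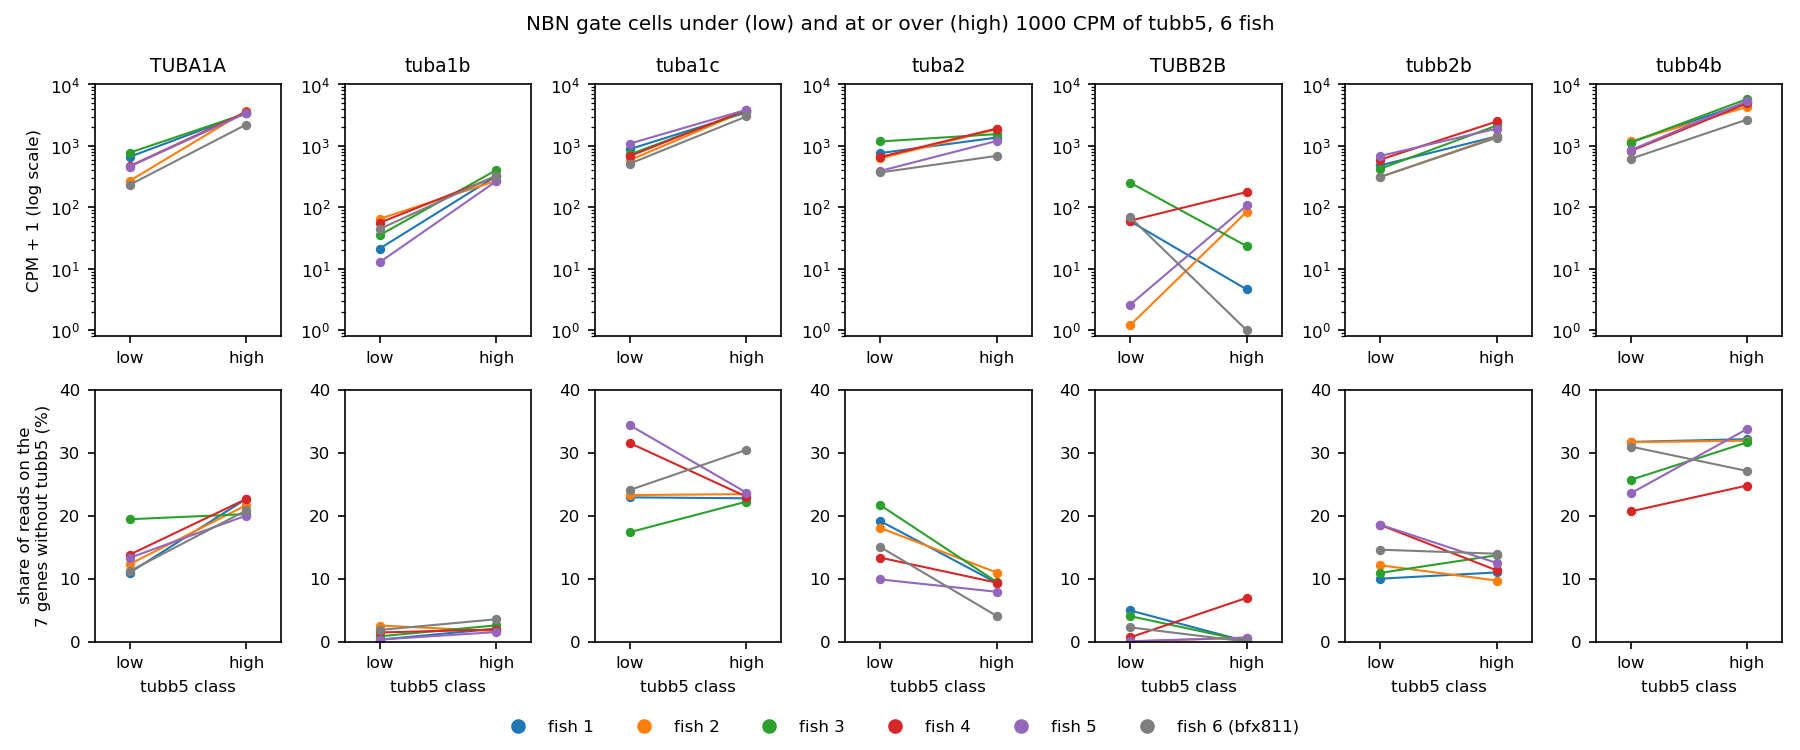
Levels (upper row, CPM plus 1 on a log scale) and shares among the 7 genes without *tubb5* (lower row, %) in *tubb5*-low and *tubb5*-high NBN gate cells, with each line a fish. Levels are lower in low cells in 6 of 6 fish for all genes but *TUBB2B*, while the mean share of *tuba2* is higher and that of *TUBA1A* lower in 6 of 6 fish.

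Other properties differed between the classes as well. Median depth was 207254 reads in *tubb5*-low and 350894 reads in *tubb5*-high cells. The summed level of 5 mature neuron markers, all of which had reads, was 1087 to 2856 CPM in low and 161 to 808 CPM in high cells. The radial glia markers summed to 349 to 4328 CPM in low and 280 to 796 CPM in high cells, with 2 of 11 identifiers at 0 in low cells and 1 of 11 in high cells. The paper names *kcnj19a* among the markers of NBN.2, a cluster of newborn neurons that it places in the diencephalon. This gene had a mean of 819 CPM in low and 91.2 CPM in high cells. The levels of the paper's other NBN.2 markers, *ebf3a*, *tbr1b*, *msi2b* and *podxl2*, are not given by class here. The oligodendrocyte precursor markers summed to 1.08 to 2952 CPM in low and 0 to 1.97 CPM in high cells. Their part in these results was not tested. The values were also taken without the 16 cells that had a read of *olig2* or *sox10*, 14 of them low, a choice made after the data were seen. *tuba2* then had 674 ± 414 CPM in low and 1447 ± 483 CPM in high cells and *TUBA1A* 537 ± 243 and 3302 ± 544 CPM, both lower in 6 of 6 fish. The mean share of *tuba2* was then 7.004 points higher in low cells (5 of 6 fish), and that of *TUBA1A* differed by -7.18 points (higher in 1 of 6 fish). No other kind of cell in the gate was left out.

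Beside RG, the *tubb5*-low NBN gate cells were not alike for all isotypes. *tuba2* had 665 ± 297 CPM in *tubb5*-low cells and 6.07 ± 13.4 CPM in RG and was higher in 6 of 6 fish. So were *tuba1c* with 749 ± 211 and 211 ± 134 CPM, and *TUBB2B* with 73.2 ± 92.2 and 0.278 ± 0.352 CPM. *TUBA1A* had 478 ± 214 and 279 ± 183 CPM, higher in 5 of 6 fish. *tubb2b* had 470 ± 152 and 388 ± 284 CPM, higher in 4 of 6. *tuba1b* had 38.3 ± 20.1 CPM in *tubb5*-low cells and 85.7 ± 44.6 CPM in RG, lower in 6 of 6 fish. *tubb4b*, with 958 ± 229 CPM in *tubb5*-low cells and 1491 ± 671 CPM in RG, was lower in 4 of 6 fish, and *tubb5* itself had 95.5 ± 91.0 and 132 ± 167 CPM.

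MNs could be compared with NBNs only within the fish of batch bfx811, with 27 cells in each gate, and therefore without a test. Intervals are exact 95% Poisson intervals and cover counting error only. *tubb5* had 337 CPM (321 to 353) in MNs and 1510 CPM (1468 to 1553) in NBNs, a ratio of 0.223. Its share and detection differed less. The mean share per cell was 6.04% in MNs and 7.65% in NBNs, and 11 and 12 of 27 cells had a read. In CPM, *tubb5* was over 2-fold lower in MNs, as were 27.9% of the 10440 genes with at least 10 CPM in either gate, while 31.7% were over 2-fold higher. Nearly all NBN reads of *tubb5*, 4805 of 4874, came from 4 *tubb5*-high cells, and 4 of the 27 MN cells also had at least 1000 CPM.

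Of the 4 α-tubulins, only *tuba2* had a higher CPM in MNs, with 705 CPM (682 to 728) in MNs and 412 CPM (390 to 434) in NBNs. Its mean share of the tubulin reads was 17.4% in MNs and 13.1% in NBNs. *TUBA1A* had 295 CPM (280 to 310) in MNs and 498 CPM (474 to 523) in NBNs, with shares of 7.79 and 11.1%. *tubb4b* had 1162 CPM in MNs and 892 CPM in NBNs, *tuba1c* 803 and 850 CPM, and *tuba1b* 72.0 and 81.8 CPM. For *tubb2b*, 573 CPM in MNs and 454 CPM in NBNs gave a log2 ratio of 0.34 in summed reads, but the mean of the cells gave -0.12. *TUBB2B* had 2 reads in MNs and 190 in NBNs, a ratio of 0.00659 (exact conditional 95% interval 0.000793 to 0.0241), from 5 NBN cells.

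Split by *tubb5*, the 23 low NBN cells of this fish had 232 CPM of *TUBA1A*, 515 CPM of *tuba1c*, 369 CPM of *tuba2* and 615 CPM of *tubb4b*, each lower than the values given for the MN gate. Its 4 high cells had 2225, 3020, 688 and 2686 CPM of the same genes. The MN gate thus lay between both classes for *TUBA1A*, *tuba1c* and *tubb4b*, and over the low class for *tuba2* in this fish. The *tuba2* level of the high cells came from 297 reads in 3 cells. The mean and median of the cells were 476 and 135 CPM in high cells, against 766 and 546 CPM in MNs. The mean share of *tuba2* was 2.16% in high cells and 17.4% in MNs. The interval of its summed level, 612 to 771 CPM, holds the 705 CPM of the MN gate but covers counting error only. Whether MNs and high cells differ in *tuba2* was not tested.

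Over the 164 NBN gate cells, the genes that varied most like *tubb5* included several of the other tubulin genes. Of 2494 genes read in at least 20% of these cells, Pearson's r of log2(CPM + 10) with *tubb5* was 0.80 for *TUBA1A*, second of all, 0.76 for *tuba1b*, 0.70 for *tuba1c*, 0.65 for *tubb4b*, 0.58 for *tubb2b*, 0.49 for *tuba2* and 0.09 for *TUBB2B*, while the median over all genes was 0.05. Within single fish r ranged from 0.65 to 0.83 for *TUBA1A* and from 0.19 to 0.61 for *tuba2*. Outside the tubulins, the highest values were those of *CD99L2* (0.80), a membrane protein gene, *tmsb* (0.79), a β-thymosin gene, *cnp* (0.77), *EEF1G* (0.70), which encodes a subunit of a translation elongation factor, and *rpl7a* (0.69), a ribosomal protein gene. The lowest were those of ENSDARG00000098380 (-0.70), *ALDOC* (-0.66) and *ENO1* (-0.61), which encode glycolytic enzymes, *MSI2* (-0.61), which encodes an RNA-binding protein, and *tmem269* (-0.56). The paper lists *cd99l2* and *cnp*, like *tubb5* and *tuba2*, among its markers of NBN.1, and *msi2b* among those of NBN.2. Of all 2494 genes, 136 had r over 0.5 and 12 under -0.5. Cells of a fish share the animal, and depth varied between cells, so that these correlations are descriptions.

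While 8.47% of all genes tested were called, 6 of the 14 other tubulin identifiers could be tested and 1 was called. This was *tubb4bl* (ENSDARG00000104436), a further β-tubulin gene, with 767 ± 200 CPM in NBNs and 164 ± 69.8 CPM in RG (log2 fold change 2.38 ± 0.49, edgeR, adjusted p = 0.00377) and 709 CPM in MNs. It had 391 ± 239 CPM in *tubb5*-low and 1261 ± 417 CPM in *tubb5*-high NBNs, lower in 6 of 6 fish, but not every other tubulin did so. *tuba8l2* had 60.3 ± 53.2 CPM in low and 11 ± 14.9 CPM in high cells, and *tuba8l3* 27.5 ± 34.1 and 1.69 ± 2.48 CPM, each higher in low cells in 4 of 6 fish. *tuba5*, an α-tubulin gene, had 10.96 ± 16.8 CPM in NBNs and 145 ± 108 CPM in RG, and *tuba8l4* 142 ± 60.5 and 246 ± 204 CPM, and neither passed (edgeR, adjusted p = 0.172 and 0.755).

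No gene for the folding or modification of tubulin was called, while 8.47% of all genes tested were called. In lists of 18, 6 and 11 genes, no call lies near that share. None of 18 genes tested for tubulin folding, the chaperonin, prefoldin and cofactors that fold and pair the chains, passed, with a median log2 fold change of 0.76 beside 0.69 over all genes (edgeR; 1 had an unadjusted p under 0.05, and DESeq2 called 0). None of 6 genes of the γ-tubulin ring, which starts microtubules, passed (median 0.86; 0 at an unadjusted p under 0.05, 0 with DESeq2). None of 11 genes for tubulin modification passed (median 1.90, 10 of 11 positive; 1 at an unadjusted p under 0.05, 0 with DESeq2), among them *atat1*, the acetyltransferase of α-tubulin, with 116 CPM in NBNs and 5.46 CPM in RG (log2 fold change 4.24, edgeR, adjusted p = 0.201).

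Of 30 genes for binding and severing of microtubules, 6 (20%) were called, all higher in NBNs (median 1.80), beside 6.66% of all genes tested. The difference between lists was not tested. These were *CLIP2*, a plus-end binding protein gene (81.3 ± 36.7 CPM in NBNs, 0.110 ± 0.174 CPM in RG), *CAMSAP3*, a minus-end binding protein gene (89.4 ± 29.6 and 0.831 ± 1.95 CPM), *DCLK1* (ENSDARG00000104664), a doublecortin-like kinase gene (325 ± 87.7 and 4.13 ± 10.02 CPM), *maptb*, a copy of the tau gene (1211 ± 174 and 82.2 ± 47.3 CPM), and 2 identifiers named *MAP7D2*. For ENSDARG00000068480, the copy of *MAP7D2* without a read in RG, NBNs were at least 488-fold higher when RG was set to 3 counts over the gate. Of 29 motor genes, 3 (10.3%) were called, all higher in NBNs, a share near the 6.66% of all genes: *KIF5A* (307 ± 152 and 3.89 ± 8.85 CPM), *KIF3C* (269 ± 108 and 0.157 ± 0.249 CPM) and *KIF21B*, which had no read in RG and was at least 172-fold higher in NBNs on the same basis. Kinesins are motors that carry cargo along microtubules.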

How the data were processed

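Per the labels and methods, GSNAP placed the reads on GRCz10 with spike-in sequences. The authors counted uniquely aligned reads on genes of Ensembl 87 with featureCounts 1.5.3 and deposited the raw counts of 32266 genes in 370 cells before quality filters and normalization. Spike-ins were not used here, and no doublet caller was run on these plate-sorted cells. Symbols came from a table of Ensembl names (26433 identifiers matched). The members and lists were chosen with earlier results of these data known.

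The quality filters were those of the study except its limit on spike-in reads, which was not applied: log10 of reads over 4.5, log10 of genes with more than 1 read from 2.7 to 3.9, under 50% of reads in the top 50 genes, under 20% on 13 mitochondrial genes, and over 20% mapped. The total of 264 cells equals that of the study, but fewer RG and more NBN and MN cells were kept than it states. The cells are therefore not all the same ones, and the cause was not tested. Counts were summed per fish and gate and compared with edgeR 4.0.16 in R 4.3.3 (quasi-likelihood, TMM, filterByExpr, Benjamini-Hochberg over all genes tested, threshold 0.05), which was tested on simulated data, and with DESeq2 1.42.0 as an alternative. Shares per cell and per fish were compared with exact sign-flip tests (scipy 1.17.1 and pandas 2.3.3 under Python 3.11.15). Reads are not molecules, so intervals and the floor of 3 counts cover counting error only. No p was adjusted over the 8 genes alone.

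Fish numbers were read from the sample names, and equal numbers in both gates were taken as the same animal, since suspensions were made from single brains. With gate means removed, r between the NBN and RG profiles of a fish was 0.0736, -0.0317, -0.0395, 0.0149, -0.0033 and 0.208 over 2000 genes. The median r with other fish was -0.0400, 0.0189, 0.0191, -0.0029, -0.0402 and -0.0703. In fish 2 and 3 the pair of equal number was thus the less alike, and in the others the more alike. These values do not settle the pairing. A second label for the fish has 4 values that follow the plates and was an alternative, as were other filters, scalings, depths and denominators, the fish as a block, and leaving out each fish. Named genes were the 8 members, the 5 highest and 5 lowest correlations, markers, and up to 5 called genes by fold change in each direction per list. *maptb*, *atat1*, *tuba5*, *tuba8l4* and *kcnj19a* were picked after values were seen.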

Additional observations from a re-analysis of the deposited data

Results flagged for a closer look

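In 62 groups of 6 fish, the highest or lowest value was set against its nearest neighbour, and 8 stood apart from the rest (a gap over 0.625 of the range). For independent, normally distributed values about 1 in 20 groups would pass this limit. Some of these values lie near 0 and the groups are not independent, so that this rate need not hold and 8 is not shown to be an excess. In RG, fish 2 stood apart for *tuba1c* (477 CPM, next 194 CPM) and fish 6 for *tuba2* (33.3 CPM, next 2.28 CPM). The share of *TUBB2B* in RG of fish 5 was 1.15%, with 0.0301% as the next value, and came mainly from 1 cell with 2 *TUBB2B* reads among 16 tubulin reads (0.0112% without it). In *tubb5*-low cells, *TUBB2B* stood apart in fish 3 (251 CPM, next 67.9 CPM), and the share of *TUBA1A* without *tubb5* did so in the same fish (19.4%, next 13.8%). In *tubb5*-high cells, fish 6, with 4 such cells, stood apart for *TUBA1A* (2225 CPM, next 3375 CPM) and for the share of *tuba1c* (30.5%, next 23.7%), and fish 4 for the share of *TUBB2B* (6.95%, next 0.645%).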

How the results depend on the processing

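Between NBNs and RG, 711 of 8393 genes were called, against 2645 with DESeq2 and 1232 without the filter on low counts, which also tested more genes (22146), and 1035 with the fish as a block (a replicate block changed no call among the 8 genes). Of 128 refits of the 8 genes, 127 kept direction and call, the exception being *tubb2b*. Leaving out each fish gave differences in share, NBN minus RG, of 12.03 to 15.7 points for *tuba1c*, 9.98 to 11.5 for *tuba2*, -39.4 to -35.1 for *tubb4b* and 10.9 to 15.8 for *tubb5*, and with the plate labels as fish they were 14.4, 10.98, -39.2 and 13.6. With 5 fish or 4 labels no p under 0.0625 or 0.125 can be had. The share of *tuba1c* also missed the threshold with at least 1 read per cell (8.70), with α- and β-tubulins apart (15.9) and with all 370 cells (12.6). That of *tuba1b* passed with pooled reads (-2.05), all α- and β-tubulins as denominator (-2.81), chains apart (-24.7), all cells (-3.23), thinned cells (-3.91) and without *elavl3*-positive RG cells (-3.63), and that of *TUBB2B* with at least 50 reads (1.09), pooled reads (0.523), all α- and β-tubulins (1.02) and thinned cells (1.15). Pooled reads also moved *tubb5* (26.8) and *tuba1c* (7.96) by over 1.5 times, and *TUBA1A* and *tubb2b*, which passed in no alternative, changed sign under some. The cause was not tested. All 84 alternatives for the shares by *tubb5* class moved by less than 1 SD over fish. Leaving *tubb5* out of the denominator, *elavl3*-positive RG cells and *olig2*- or *sox10*-positive NBN cells was chosen after seeing the data. Shares per transcript length were not run, since no lengths were at hand. In RG, 4 to 21 cells per fish carried the shares, which limits their precision.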
